A study of Mus musculus with 20 samples.

Results

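Cbln1, Cbln3, Fat2, Cdh15, Pax6, Barhl1, En1, En2 and Etv1 are markers of cerebellar granule neurons, and the peaks over these 9 genes were read from CUT&RUN libraries of sorted adult mouse brain nuclei. The 9 genes are a fixed list out of 21631 protein-coding genes on chromosomes 1 to 19 and X. They were chosen by marker role with their peak coverage in these same libraries, by antibody and labelled neuron type, already known. The differences between types below are therefore a description and support no claim about the list. CUT&RUN cuts DNA out around an antibody-bound chromatin site, and the sequenced fragments pile up as peaks. The 20 libraries are 5 antibodies (H3K4me3, H3K4me1, H3K27ac, H3K27me3 and the transcription factor EGR1) by nuclei labelled excitatory neuron and nuclei labelled inhibitory neuron, with 2 libraries in each of the 10 groups. Every library, of both neuron types, carries the genotype label Sun1 f/f | Emx1Cre (+), the tissue label whole brain and the age label 8 weeks. Emx1-driven Cre is used to mark the excitatory lineage of the dorsal forebrain, how the nuclei were gated is not stated in the labels, and the labels do not say whether replicates came from separate animals, so any spread between replicates may be technical.

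Granule neurons are the small glutamatergic neurons of the cerebellar cortex and the most numerous neurons of the brain. They arise from the rhombic lip and send parallel fibres to Purkinje cells. H3K4me3 marks active or poised gene starts, H3K4me1 marks enhancers and the flanks of starts, H3K27ac marks active starts and enhancers, and H3K27me3 is the mark that Polycomb proteins place on silenced developmental genes. EGR1 is an immediate early transcription factor induced by neuronal activity. Cbln1 is a secreted synapse organizer that bridges parallel fibres and Purkinje cells, and Cbln3 is a granule neuron partner that is secreted together with it. Fat2 is a giant atypical cadherin of parallel fibres, and Cdh15 is the classical M-cadherin. Pax6 and Barhl1 are homeodomain factors of the rhombic lip lineage, En1 and En2 pattern the midbrain and hindbrain, and Etv1 is an ETS factor of maturing granule neurons. Several of these genes are used elsewhere too, such as Pax6 in cortical progenitors and Etv1 in deep cortical neurons.

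The libraries hold 49899 to 321846 peaks each. The peak lists give no read totals, which leaves sequencing depth unknown. A q-value under 0.05 was reached by 90.7% to 98.1% of peaks for EGR1, 23.9% to 47.6% for H3K4me3, 2.57% to 35.1% for H3K27ac, 0.0087% to 9.61% for H3K4me1 and 0.00488% to 0.0099% for H3K27me3. The H3K27ac libraries went against their labels at inhibitory neuron genes. For 12 inhibitory neuron genes, among them Gad1, Gad2, Slc32a1, Pvalb and Vip, H3K27ac peaks covered a mean of 4.93% and 6.18% of the gene windows in the 2 excitatory-labelled libraries and 0.378% and 0.557% in the 2 inhibitory-labelled libraries. No gene of that list was at 0 in both excitatory-labelled libraries, and 7 of the 12 (Slc32a1, Dlx1, Dlx2, Dlx5, Dlx6, Lhx6 and Sst) were at 0 in both inhibitory-labelled libraries. For 10 excitatory forebrain genes the same means were 6.62% and 8.39% in the excitatory-labelled libraries and 4.82% and 6.03% in the inhibitory-labelled libraries. EGR1 went with the labels: over the excitatory forebrain list its mean coverage was 10.1% and 10.3% in the excitatory-labelled libraries against 2.67% and 4.47%, and over the inhibitory neuron list it was 1.45% and 1.14% against 4.44% and 4.67%. H3K4me3 over the inhibitory neuron list was at 8.10% and 12.1% against 8.16% and 8.67%, and H3K4me1 at 14.1% and 21.1% against 12.1% and 11.9%. The groups are therefore called by their labels, and each comparison below rests on both libraries of each label.

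Sequences from RefSeq (GRCm38.p6, the assembly behind mm10) are shown for 4 gene starts where the marks of the labelled types lay apart or together. Each is the 250 bases before an annotated start, 5′ to 3′ on the gene's strand, with every CG dinucleotide in capitals. The Barhl1 stretch is chr2:28916669-28916918 on the minus strand, where H3K4me3 peaks covered 0 and 0 bases in the excitatory-labelled libraries and 206 and 237 bases in the inhibitory-labelled libraries. The Pax6 stretch is chr2:105682213-105682462 on the plus strand, before an internal start, where H3K27me3 peaks covered all 250 bases in both excitatory-labelled libraries and 0 in both inhibitory-labelled libraries. The first Etv1 stretch is chr12:38779832-38780081 on the plus strand, where H3K4me3 covered all 250 bases in all 4 libraries. The second Etv1 stretch is chr12:38783461-38783710, before the downstream start. There H3K4me3 covered 0 and 0 bases in the excitatory-labelled libraries and 209 and 151 bases in the inhibitory-labelled libraries, and H3K27me3 covered 212 and 250 bases against 0 and 0.
Barhl1: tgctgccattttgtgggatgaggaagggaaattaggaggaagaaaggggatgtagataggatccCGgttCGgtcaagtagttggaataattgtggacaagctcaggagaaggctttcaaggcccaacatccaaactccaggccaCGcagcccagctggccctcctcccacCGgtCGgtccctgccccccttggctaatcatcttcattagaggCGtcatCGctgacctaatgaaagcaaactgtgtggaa
Pax6, internal start: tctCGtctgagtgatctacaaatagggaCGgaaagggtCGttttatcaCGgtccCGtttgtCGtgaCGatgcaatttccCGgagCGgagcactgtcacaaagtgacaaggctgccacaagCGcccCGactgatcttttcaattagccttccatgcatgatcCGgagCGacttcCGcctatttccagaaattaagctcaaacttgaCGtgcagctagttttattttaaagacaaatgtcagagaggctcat
Etv1, first start: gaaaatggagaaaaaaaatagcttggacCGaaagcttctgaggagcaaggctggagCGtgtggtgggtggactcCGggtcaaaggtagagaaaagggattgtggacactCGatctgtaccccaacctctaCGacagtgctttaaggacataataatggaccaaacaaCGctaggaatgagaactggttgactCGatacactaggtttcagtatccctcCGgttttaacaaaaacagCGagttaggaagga
Etv1, downstream start: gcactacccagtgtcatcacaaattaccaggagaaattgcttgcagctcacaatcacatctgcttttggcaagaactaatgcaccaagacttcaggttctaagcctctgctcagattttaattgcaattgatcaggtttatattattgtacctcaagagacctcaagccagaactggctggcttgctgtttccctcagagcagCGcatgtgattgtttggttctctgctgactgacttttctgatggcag
The Barhl1 stretch holds 7 CG dinucleotides, the Pax6 stretch 15, the first Etv1 stretch 9 and the second Etv1 stretch 1. In the RefSeq table, 7 of the 9 genes have an entry and 10 starts are listed for them. Over the 300 bases around each start these hold 2 (Cbln3) to 23 (En1) CG dinucleotides, against a median of 13 over 21045 promoters, so the genes do not share a CG-rich or a CG-poor start. The EGR1 core motif GCGTGGGCG was in none of the 10 windows on either strand, and 0.836% of all promoters hold it. The looser form GNGTGGGNG, which includes the core, was in 1 of the 10, at Cdh15 just after the start, and 15.6% of all promoters hold it.

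H3K27me3 covered more of 7 of the 9 genes in both excitatory-labelled libraries than in either inhibitory-labelled library, where 14.2% of all genes tested lay that way, and H3K4me3, H3K4me1 and H3K27ac covered less of most of them. The measure is the percent of a window covered by peaks. For H3K4me3 and EGR1 the window reached 2 kb either way from each gene end, and for the other marks it was the gene body plus 5 kb on each side. Differences are excitatory minus inhibitory in percentage points after quantile normalization over the 4 libraries, with their standard errors from limma across all genes, while levels are as measured. The median difference of the 9 genes was -15.0 points for H3K4me3, against -0.13 over all genes tested, with 8 of 9 negative, and -9.65 points without excitatory replicate 1. It was -9.61 points for H3K4me1 with 9 of 9 negative, against -0.34 over all genes and with -2.98 points over gene ends, and -4.85 points for H3K27ac with 7 of 9 negative, against -0.08. For H3K27me3 it was 18.3 points with 1 of 9 negative, against 0.05, and for EGR1 it was -0.35 points over the 6 genes tested, against -0.43. Of all genes tested, 51.4% were negative for H3K4me3, 52.7% for H3K4me1, 51.1% for H3K27ac and 49.3% for H3K27me3. In a sorted pool of nuclei, fewer nuclei of a type and less signal per nucleus cannot be told apart.

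**Figure D1:**
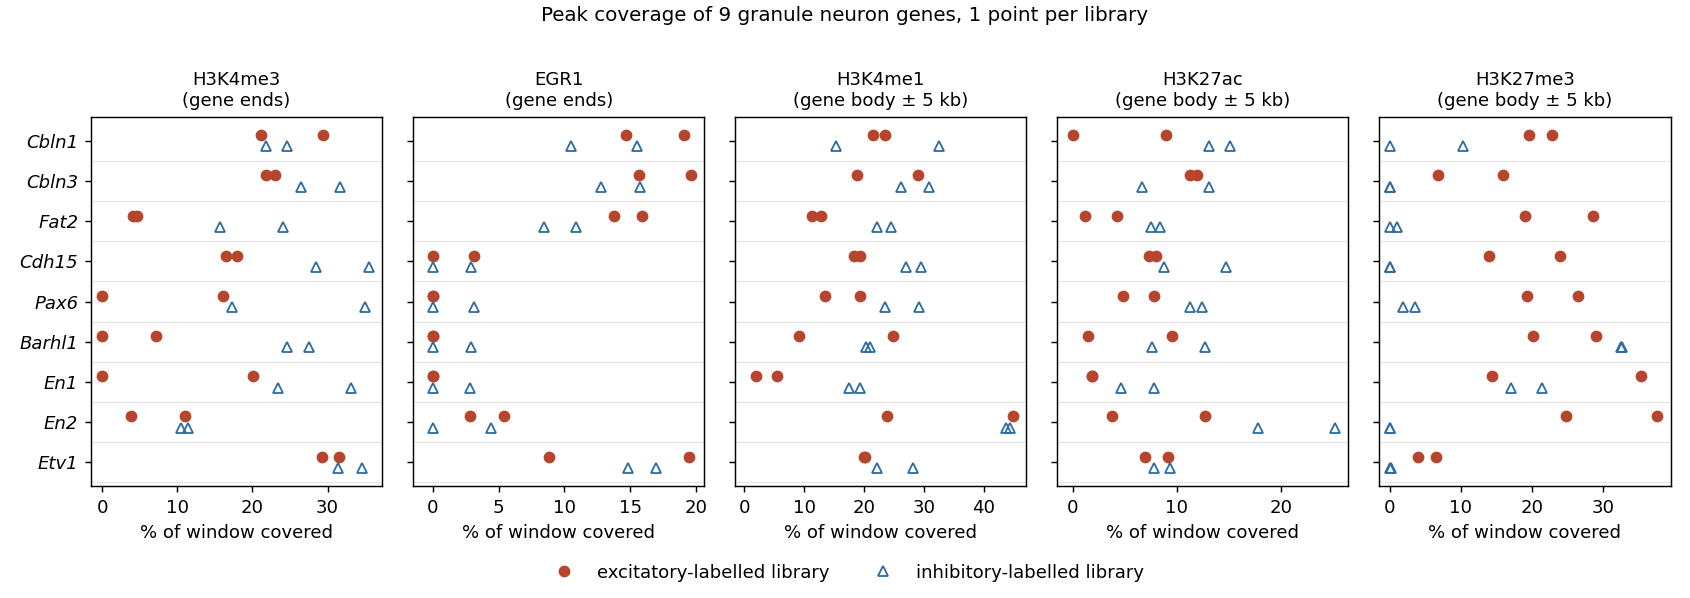
Percent of the gene window covered by called peaks (horizontal axes) for each of the 9 genes (rows) and antibody (panels), with filled circles for the 2 excitatory-labelled libraries and open triangles for the 2 inhibitory-labelled libraries. H3K27me3 circles lie right of the triangles for 7 genes, with Barhl1 the other way round and En1 overlapping, and H3K4me3 circles lie left of the triangles for 6 genes.

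For H3K4me3, all excitatory-labelled values lay below all inhibitory-labelled values for 6 of 9 genes, where 20.3% of the 15685 genes tested did so, and 0 of 9 lay the other way, where 25.6% did. In limma with Benjamini-Hochberg adjustment over all genes at a threshold of 0.05, 3 of 9 (Fat2, Cdh15 and Barhl1) were called lower in the excitatory-labelled libraries, where 1.22% of all genes were, and 0 were called higher, where 1.80% were. Without excitatory replicate 1 the count was again 3. It was 0 without excitatory replicate 2, without inhibitory replicate 1 or without inhibitory replicate 2. It was also 0 without quantile normalization or without the filter on covered bases, and 4 over the gene body window (Fat2, Barhl1, En2 and Etv1), where 0.263% of all genes were called lower. These counts come from the contrast that led to the list and nothing is read from them.

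**Figure D2:**
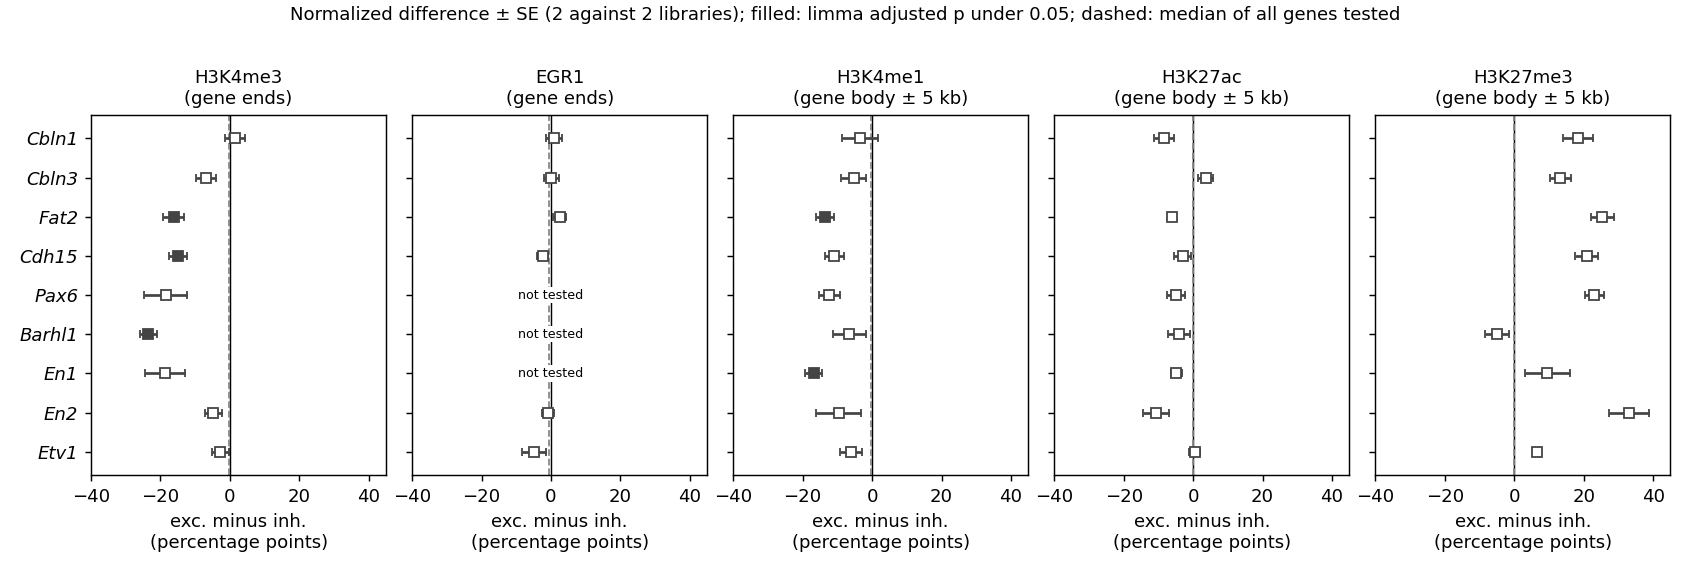
Normalized difference, excitatory minus inhibitory, in percentage points (horizontal axes) with its standard error for each gene (rows) and antibody (panels). Filled squares passed limma at an adjusted p of 0.05, dashed lines give the median of all genes tested, and the filled squares are Fat2, Cdh15 and Barhl1 for H3K4me3 and Fat2 and En1 for H3K4me1.

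The secreted organizers come first. Cbln1 (chr8:87468853-87472592) had H3K4me3 on 21.1% and 29.4% of its gene-end windows in the excitatory-labelled libraries, against 24.6% and 21.8% in the inhibitory-labelled libraries. Those groups overlap, and the difference was 1.51 ± 2.81 points, or -2.37 over the gene body window. Its 2 ends went opposite ways. At the higher-coordinate end H3K4me3 covered 40.8% and 56.4% in the excitatory-labelled libraries against 12.4% and 28.8% in the inhibitory-labelled libraries, and at the lower-coordinate end it covered 0% and 6.97% against 35.2% and 13.4%. The lncRNA gene Gm2694 begins beside the higher-coordinate end, and peaks there cannot be told apart between the 2 genes. H3K27me3 covered 36.2% and 32.4% of that same end in the excitatory-labelled libraries and 0% in both inhibitory-labelled libraries, and H3K4me1 covered 39.8% and 74.2% against 0% and 0%. Over the whole Cbln1 window H3K27me3 was at 22.8% and 19.6% in the excitatory-labelled libraries, against 0% and 10.3%, a difference of 18.3 ± 4.31 points.

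Cbln3 (chr14:55878920-55884256) had H3K4me3 at 23.1% and 21.8% in the excitatory-labelled libraries, against 31.7% and 26.4% in the inhibitory-labelled libraries. The groups do not overlap, but the difference of -6.92 ± 2.78 points did not pass the test. Within 2 kb of its start, the 4 libraries had 46.1% and 43.6% in the excitatory-labelled group and 50.8% and 41.5% in the inhibitory-labelled group, so the start itself overlapped. Khnyn starts beside it, and the strongest H3K4me3 peaks of the excitatory-labelled libraries had their summits at -1178 and -1485 bases from the Cbln3 start, on the Khnyn side. Those of the inhibitory-labelled libraries had their summits 10308 and 10134 bases after the Cbln3 start, inside Nynrin. Nynrin reaches into the gene body window of Cbln3. H3K27me3 covered 0% of the start in all 4 libraries, and over the whole window it covered 6.84% and 16.0% in the excitatory-labelled libraries, against 0% and 0%. H3K27ac was at 11.3% and 11.9%, against 6.68% and 13.1%, and these groups overlap.

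Both adhesion genes were called lower in H3K4me3 in the excitatory-labelled libraries. Fat2 (chr11:55250609-55337505) had H3K4me3 on 4.11% and 4.58% of its gene-end windows in the excitatory-labelled libraries, against 15.7% and 24.0% in the inhibitory-labelled libraries. Both excitatory-labelled values were lower, and the difference was -16.2 ± 2.98 points, or -9.20 over the whole gene body window. H3K27me3 showed the opposite, at 19% and 28.6% in the excitatory-labelled libraries and 0.93% and 0% in the inhibitory-labelled libraries. Across the body plus flanks the 2 excitatory-labelled H3K27me3 libraries shared 9373 covered bases, while the 2 inhibitory-labelled libraries shared 0. At the higher-coordinate end H3K27me3 covered 42.3% and 72.3% in the excitatory-labelled libraries against 0% and 0%, and H3K4me3 covered 8.2% and 4.6% against 31.4% and 35.3%. Fat2 lies on the minus strand, so this higher-coordinate end is the upstream end of the gene. The single start listed in RefSeq lies inside the gene, and H3K4me3 within 2 kb of it was at 0% in all 4 libraries. H3K4me1 was at 12.7% and 11.3% in the excitatory-labelled libraries, against 24.5% and 22.2%, a difference of -13.5 ± 2.51 points, and H3K27ac was at 1.13% and 4.28%, against 7.54% and 8.41%.

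**Figure D3:**
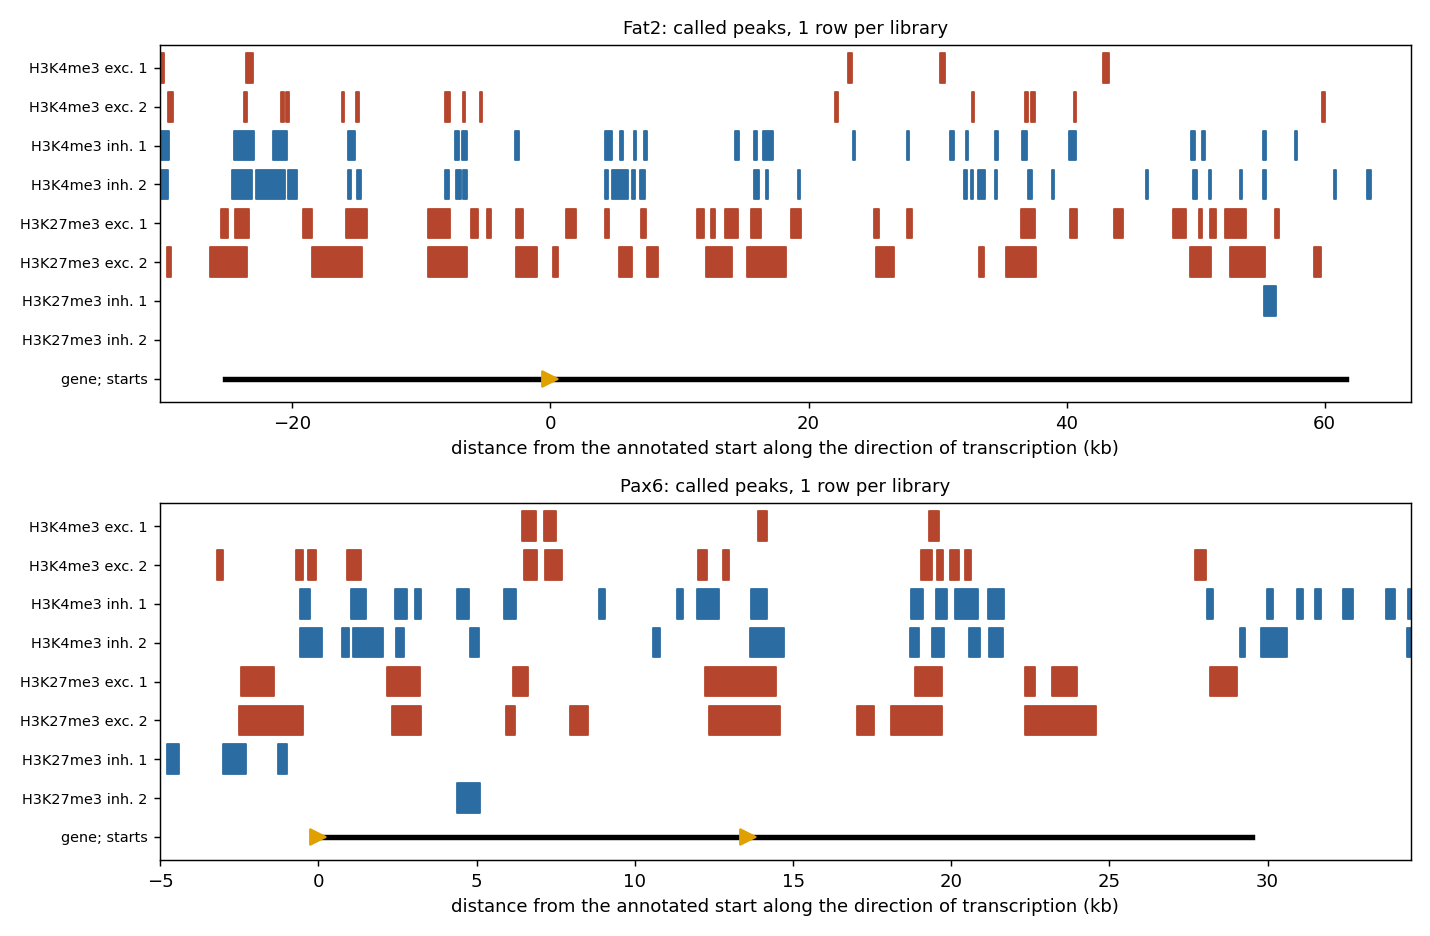
Called H3K4me3 and H3K27me3 peaks (bars) over Fat2 and Pax6 with 5 kb on each side, 1 row per library, excitatory-labelled libraries in red and inhibitory-labelled libraries in blue, against distance in kb from the annotated start along the direction of transcription. Wedges mark annotated starts, the black line is the gene, and H3K27me3 bars lie along both genes in the excitatory-labelled rows while the inhibitory-labelled rows hold few or none. The listed Fat2 start is internal, and the upstream end of the gene lies at -25.2 kb.

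Cdh15 (chr8:122848374-122867397) had H3K4me3 at 16.4% and 18% in the excitatory-labelled libraries, against 28.5% and 35.5% in the inhibitory-labelled libraries, a difference of -15.0 ± 2.58 points. At its start the values were 9.5% and 14.4% against 40.9% and 54.3%, and at its other end they were 23.4% and 21.5% against 16.1% and 16.7%, so the 2 ends went opposite ways. The strongest H3K4me3 peak of each inhibitory-labelled library lay over the start, with a fold enrichment given by the authors of 4.74 and 3.83 and widths of 1381 and 2366 bases. In the excitatory-labelled libraries the strongest peak lay near the 3′ end, with widths of 1513 and 1728 bases. Over the gene body window, which dilutes both ends, the difference was -3.46 points and was not called, and keeping peaks whose -log10 p was 3 or more the gene-end difference was -6.20 points. H3K27me3 covered 14% and 23.9% of the Cdh15 window in the excitatory-labelled libraries and 0% in both inhibitory-labelled libraries. H3K4me1 was at 18.3% and 19.3%, against 29.4% and 27%, and H3K27ac was at 7.33% and 7.99%, against 14.7% and 8.80%.

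Among the rhombic lip factors, the H3K27me3 difference was positive at Pax6 and negative at Barhl1, and neither passed the test. Pax6 (chr2:105668896-105698410) had H3K4me3 at 0% and 16.1% in the excitatory-labelled libraries, against 17.2% and 34.9% in the inhibitory-labelled libraries. Its difference of -18.5 ± 6.22 points, or -10.2 over the gene body window, did not pass the test, and the 2 excitatory-labelled libraries were themselves far apart. H3K27me3 covered 19.3% and 26.5% of the window in the excitatory-labelled libraries, against 3.55% and 1.80%. At the internal start whose sequence is given above, H3K27me3 covered 56.2% and 56.1% of the 2 kb on each side in the excitatory-labelled libraries, against 0% and 0%. H3K4me3 at the same start was at 7.3% and 11.3%, against 30.0% and 26.9%. H3K4me1 over the window was at 13.4% and 19.3%, against 29.1% and 23.6%, and H3K27ac was at 7.77% and 4.85%, against 11.3% and 12.4%. Elp4 and Pax6os1 overlap this window.

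Barhl1 (chr2:28907680-28917984) had an H3K4me3 difference of -23.5 ± 2.43 points over gene ends, or -11.4 over the gene body window. Its values were 0% and 7.15% in the excitatory-labelled libraries, against 24.6% and 27.6% in the inhibitory-labelled libraries. Within 2 kb of the outer start shown above they were 12.2% and 9.4% against 69.5% and 76.5%, the widest H3K4me3 gap at any of the 10 annotated starts. H3K27me3 was lower in both excitatory-labelled libraries, as for 48.7% of all genes tested, and the difference did not pass the test. It covered 20.2% and 29.0% of the Barhl1 window in the excitatory-labelled libraries, against 32.6% and 32.5% in the inhibitory-labelled libraries, a difference of -4.84 ± 3.42 points. Over gene ends H3K27me3 was at 16.6% and 23.45% against 40.8% and 19.85%, which overlap, a difference of -5.11 ± 8.81 points. At the inner start H3K27me3 was higher in the excitatory-labelled libraries, at 37.1% and 60.1% against 23.6% and 28.0%. In the inhibitory-labelled libraries the bases that H3K4me3 held in both libraries and the bases that H3K27me3 held in both libraries shared 0 positions at Barhl1. Ddx31 lies beside the gene and inside the window.

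In H3K27me3 both engrailed genes had positive differences, and neither passed the test. En1 (chr1:120602487-120607991) had H3K27me3 at 14.4% and 35.5% in the excitatory-labelled libraries, against 21.4% and 17.1% in the inhibitory-labelled libraries, and the groups overlap. Its difference was 9.51 ± 6.48 points over the gene body window and 17.7 ± 7.99 points over gene ends. En2 (chr5:28165696-28172190) had 37.7% and 24.9%, against 0% and 0%, with a difference of 33.1 ± 5.73 points over the gene body window and 13.4 ± 3.64 points over gene ends. In H3K4me3 over gene ends En1 was at 0% and 20.1% in the excitatory-labelled libraries, against 23.4% and 33.1%, a difference of -18.6 ± 5.82 points, and En2 was at 3.77% and 11%, against 11.4% and 10.5%, with overlapping groups and a difference of -4.75 ± 2.35 points. Over the gene body window the differences were -9.78 points for En1, not called, and -11.8 points for En2, called lower, with En2 at 8.20% and 11.5% against 22.0% and 21.7%. En1 had the lowest H3K4me1 level of the 9 in the excitatory-labelled libraries, 1.90% and 5.51%, against 17.4% and 19.3%, a difference of -16.8 ± 2.38 points that was -28.3 points over gene ends. En2 had the highest H3K27ac level in the inhibitory-labelled libraries, at 3.75% and 12.7% in the excitatory-labelled libraries against 17.8% and 25.2%. The lncRNA genes Gm34352 and Gm52808 lie beside En1 and En2.

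Etv1 (chr12:38780082-38870483) had overlapping groups in H3K4me3 over gene ends and in H3K27ac. H3K4me3 was at 29.2% and 31.6% in the excitatory-labelled libraries, against 34.6% and 31.4% in the inhibitory-labelled libraries, and H3K27ac was at 6.98% and 9.11%, against 9.33% and 7.76%. Over the gene body window H3K4me3 was at 3.36% and 5.91% against 11.9% and 12.4%, which do not overlap, and the difference was -7.63 points and called lower, where that over gene ends was -2.73 points. At the first start H3K4me3 covered 58.4% and 63.1% against 64.7% and 62.7%, which overlap. At the downstream start it covered 0% and 0% against 14.2% and 16.9%, which do not. H3K27me3 was low over the whole window, at 3.98% and 6.56% against 0% and 0.21%, a difference of 6.66 ± 1.11 points.

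H3K27me3 differences kept their sign for all 9 genes under each of the 83 alternative values computed, and the peaks behind them were weak. Part of these values could not change sign. The replicate block returns the same difference as the main fit. Cbln3, Cdh15 and En2 were at 0% in both inhibitory-labelled libraries, which fixed their sign without quantile normalization. All excitatory-labelled values lay above all inhibitory-labelled values for 7 of 9 genes, where 14.2% of the 15438 genes tested did so, and below for 1 (Barhl1), where 48.7% did. The 2 excitatory-labelled libraries shared covered bases at all 9 genes, 28125 in all, and the 2 inhibitory-labelled libraries shared covered bases at 2 genes, 3758 in all, with 3233 at Barhl1 and 525 at En1. How many of all genes shared bases in this way was not counted. Over the 9 gene windows there were 66 and 62 peaks in the excitatory-labelled libraries against 12 and 13 in the inhibitory-labelled libraries. None of these peaks had a q-value under 0.05, and the strongest reached a -log10 p of 2.58 in the excitatory-labelled libraries and 2.09 in the inhibitory-labelled libraries. The lists contain broad peaks down to a p of 0.0999, and with a minimum -log10 p of 3 no member could be tested. In limma 0 of 15438 genes were called after adjustment in either direction, and 4455 had an unadjusted p under 0.05, with 7 of the 9 members among them. Over all protein-coding genes the mean coverage was 6.79% and 7.68% in the excitatory-labelled libraries and 9.89% and 8.79% in the inhibitory-labelled libraries, the other way round from the 9 genes at 17.6% and 23.4% against 6.50% and 6.88%.

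H3K4me1 was called lower in the excitatory-labelled libraries for 2 of 9 genes, Fat2 and En1, where 1.53% of the 18017 genes tested were, and higher for 0, where 2.53% were. The groups did not overlap for 5 of 9, all lower, where 15.3% of genes did so, and 39.3% of genes lay the other way. The count of called members was 1 without excitatory replicate 2, and 0 without excitatory replicate 1, without inhibitory replicate 1 or without inhibitory replicate 2. Without quantile normalization the split of calls over all genes was 1043 higher and 168 lower, against 456 higher and 276 lower with it. The member count was 0 when each library was held to the same number of strongest peaks. Over the gene-end window the differences of Cbln1, Barhl1, En2 and Etv1 were positive. No H3K4me1 peak over the 9 genes had a q-value under 0.05 in any library.

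H3K27ac gave 0 calls among 16654 genes tested by limma, with 3039 at an unadjusted p under 0.05, 4 of them members. All excitatory-labelled values were below all inhibitory-labelled values for 6 of 9 genes, where 26.2% of genes did so, and above for 0, where 24.9% did. The share of all peaks with a q-value under 0.05 was 2.57% and 4.94% in the excitatory-labelled libraries and 31.8% and 35.1% in the inhibitory-labelled libraries, and its part in this result was not tested. Over the 9 genes, 1 and 0 H3K27ac peaks passed that q-value in the excitatory-labelled libraries and 18 and 19 in the inhibitory-labelled libraries. Bases with both H3K4me1 and H3K27ac in both replicates were found at 0 genes in the excitatory-labelled libraries. In the inhibitory-labelled libraries they were found at 6 genes, 5226 bases in all, with 1964 at En2, 1326 at Fat2 and 1234 at Etv1. The same counts over all genes were not made, so these are not read as a trait of the 9 genes.

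For EGR1, the groups overlapped at 5 of the 6 genes tested. In limma 0 of 14310 genes were called, with 2105 at an unadjusted p under 0.05 and 0 members among them. Fat2 was the 1 member whose groups did not overlap, at 15.9% and 13.8% in the excitatory-labelled libraries against 8.44% and 10.9% in the inhibitory-labelled libraries, where 47.4% of genes lay that way and 6.04% the other. Cbln1 was at 19.1% and 14.7% against 10.5% and 15.5%, Cbln3 at 15.7% and 19.6% against 12.8% and 15.8%, and Etv1 at 19.4% and 8.86% against 14.9% and 17.0%. Cdh15 and En2 stayed at or under 5.42% in all libraries. Pax6, Barhl1 and En1 had no EGR1 peak at their ends in the excitatory-labelled libraries and a peak in 1 inhibitory-labelled library, so they were not tested. The sign of the EGR1 medians depended on the scaling: without quantile normalization the median of all genes was 2.35 points and that of the 6 genes 2.64 points. Cdh15 and En2 changed sign in that setting, and Cbln1, Cbln3, Fat2 and Etv1 kept theirs. At Etv1, EGR1 peaks lay over the first start in all 4 libraries, covering 89 and 111 of the 300 bases around it in the excitatory-labelled libraries and 207 and 99 in the inhibitory-labelled libraries. The single strongest EGR1 peak of each excitatory-labelled library had its summit 6299 and 6354 bases after the downstream start, and that of each inhibitory-labelled library 49594 and 49629 bases after it.

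A further list of 20 granule lineage genes (among them Gabra6, Gabrd, Grin2c, Calb2, Atoh1, Neurod1, Zic1, Meis1, Reln and Slc17a7) was chosen with earlier results known and is given for comparison. H3K4me3 was called lower in the excitatory-labelled libraries for 5 of 19 tested, where 1.22% of all genes were, and higher for 0, where 1.80% were. Without quantile normalization no gene was called in H3K4me3, those of the list included. Gabra6, a granule neuron GABA-A receptor subunit, was at 0% and 8.18% in the excitatory-labelled libraries against 27.6% and 33.1%, a difference of -27.3 points. Calb2, the calcium-binding protein calretinin, was at -21.1 points, and Zic1, a zinc finger factor of granule precursors, at -15.6 points. H3K4me1 was called lower for 2 of 20, Zic5 at -24.9 points and Gabra6 at -19.3 points, where 1.53% of all genes were, and higher for 0, where 2.53% were, and the other antibodies gave 0 calls. The mean H3K27me3 coverage of the list was 20.9% and 20.8% in the excitatory-labelled libraries and 5.89% and 5.72% in the inhibitory-labelled libraries, with 14 of 20 genes higher without overlap, where 14.2% of all genes were, and 2 of 20 lower, where 48.7% were. Atoh1, the factor that founds the lineage and is off in mature granule neurons, was at 42.8% and 41.5% against 47.1% and 56.1%, lower without overlap as at Barhl1, and was named after its values were seen. Slc17a7 and Neurod2 are also on the excitatory forebrain list.

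**Figure D4:**
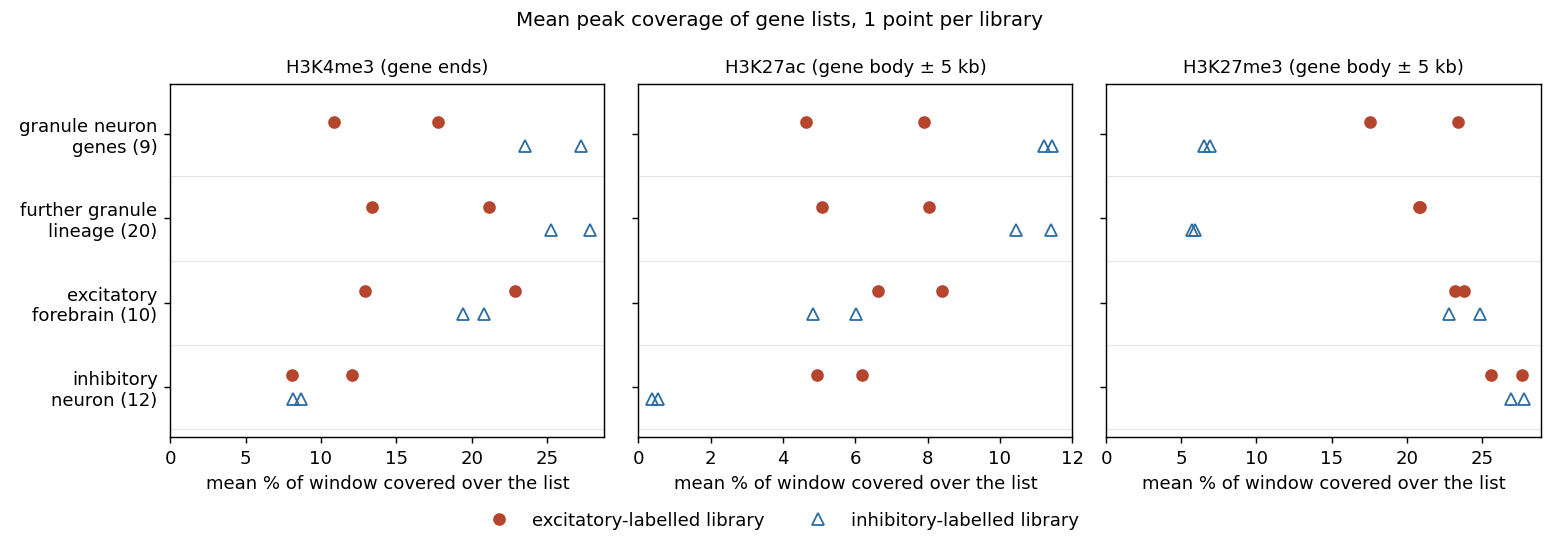
Mean percent of the gene window covered by peaks over 4 gene lists (rows) for H3K4me3, H3K27ac and H3K27me3 (panels), with filled circles for the 2 excitatory-labelled libraries and open triangles for the 2 inhibitory-labelled libraries. For H3K27me3 both granule lists lie higher in the excitatory-labelled libraries, whereas the forebrain and inhibitory neuron lists lie at 22.8% to 27.8% in all 4 libraries.

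Mean H3K27me3 coverage was 23.8% and 23.2% in the excitatory-labelled libraries against 24.9% and 22.8% for the excitatory forebrain list, and 27.7% and 25.6% against 27.8% and 27% for the inhibitory neuron list. It was 19.4% and 17.7% against 14.8% and 14.9% for 8 Purkinje genes, and 29.3% and 28.5% against 28.9% and 31.6% for 4 cerebellar inhibitory genes. For 4 unipolar brush cell genes it was 14.9% and 18.4% against 15.8% and 15.2%, and for 6 midbrain dopaminergic genes 28.0% and 27.7% against 28.3% and 30.0%. Glial and vascular lists gave 18% and 21.3% against 18.5% and 18.8% (astrocyte), 14.3% and 14.5% against 18.3% and 17.5% (oligodendrocyte lineage), 11% and 11.7% against 15.4% and 15.3% (microglia), and 19.9% and 23.5% against 19.7% and 19.4% (vascular). The difference between lists was not tested.

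Some genes of those lists passed limma in H3K4me3 or H3K4me1. In H3K4me3, Tbr1 of the excitatory forebrain list was called lower in the excitatory-labelled libraries, at 0% and 12.0% against 34.3% and 35.9%. Lhx1 (Purkinje, -18.8 points), Eomes (unipolar brush cell, -29.5 points) and Slc4a4 (astrocyte, -19.5 points) were also called lower. In H3K4me1, Gad1, the GABA-synthesizing enzyme, was called higher in the excitatory-labelled libraries, at 21.2% and 25.4% against 4.42% and 7.40%, and Cldn5 (12.1 points) was called higher too. Lhx5 (-13.8 points), Foxa1 (-18.1 points) and Foxa2 (-17.2 points) were called lower. The cerebellar inhibitory and microglia lists had 0 calls for any antibody.

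Each gene was given its percentile of coverage among all 21631 genes in each of the 20 libraries, and the mean profile of the 9 genes was compared with every other gene. The genes with the most similar profiles were Tmem51 (Pearson r = 0.935 over 20 libraries), Ltbp2 (0.920), Slc4a4 (0.912), Cd300e (0.890) and Zic5 (0.875). The points share libraries and antibodies, and the values are a description. Within the list, Cdh15 had the profile closest to the mean of the other 8 genes, with r = 0.809, followed by Pax6 at 0.769 and En2 at 0.722. Fat2 was at 0.577, Cbln1 at 0.382, En1 at 0.367, Barhl1 at 0.353, Cbln3 at 0.338 and Etv1 at 0.230.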

How the data were processed

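CUT&RUN libraries were made with the CUTANA kit and NEBNext Ultra II from nuclei sorted out of adult mouse brain, per the labels' protocols. Per the submitters' processing notes, the build was mm10 and the tools were MACS2 2.2.5, Bowtie2 2.3.5, SAMtools 1.12, Picard 2.25.0, Trim Galore 0.5.0 and cutadapt 1.18. Tool settings and control libraries were not stated there. Each library has its own peak list from the authors, broad for H3K4me1 and H3K27me3 and narrow for the others, with a fold enrichment (a ratio) and a -log10 p-value per peak, beside its -log10 q-value. From the deposited values, the highest p kept was 0.00481 to 0.00491 for EGR1, 0.0483 to 0.0498 for the narrow histone lists and 0.0988 to 0.0999 for the broad lists. Without read counts, depth is unknown and no counting interval can be given. Peak names in the EGR1 lists carry other replicate numbers than the labels, and the labels were followed.

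Gene positions and starts came from RefSeq (GRCm38.p6). For each library the percent of a gene window covered by peaks was computed, quantile-normalized over the 4 libraries of an antibody, and tested by limma 3.58.1 (R 4.3.3) (eBayes with trend, two-sided, Benjamini-Hochberg over all genes with a covered base in at least 2 libraries, threshold 0.05). A gene was called if it passed and its groups did not overlap. Counts of calls over all genes under the alternative settings needed the adjusted p alone. Member counts and shares of all genes also needed groups that did not overlap. An exact permutation test of 2 against 2 libraries cannot go below 0.333. On simulated data with 200 genes changed, the H3K4me3 fit over 15685 genes recovered 99.5% at 20 points and 54% at 10 points. At 20 and 10 points the H3K4me1 fit over 18017 genes recovered 98% and 40.5%, the H3K27me3 fit over 15438 genes 95% and 36.5%, the H3K27ac fit over 16654 genes 100% and 85%, and the EGR1 fit over 14310 genes 100% and 87%. The simulated noise was independent and normal, with a spread set by coverage level, and all other genes had no difference. Real peak coverage need not behave so, and these shares are not the power of the real fits. In the real H3K27me3 fit, En2 at 33.1 points was not called.

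The 9 genes, the further granule lineage list and the marker lists (excitatory forebrain, inhibitory neuron, Purkinje, cerebellar inhibitory, midbrain dopaminergic, unipolar brush cell, astrocyte, oligodendrocyte lineage, microglia and vascular) were chosen with earlier results of these data known. Genes named from the lists are up to 3 per direction, antibody and list with the largest difference among those called, besides an example named for its H3K27me3. Some list genes that passed are not reported here. For likeness, the 5 genes with proper symbols nearest to the mean percentile profile are named. Alternatives were the peak threshold, equal peak numbers, normalization, both filters, the window, a replicate block and leaving out each library.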

Additional observations from a re-analysis of the deposited data

How the results depend on the processing

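Counts over all genes in this section needed the adjusted p alone, and counts of members also needed groups that did not overlap. Over all genes, H3K4me3 gave 474 calls. There were 0 without quantile normalization, 0 without the filter on covered bases, 302 over genes covered in all 4 libraries, 111 over the gene body window, and 0 to 733 with 1 library left out. The count of the 9 genes called was 3, 0 in each of the first 2 alternatives and 0 to 3 with 1 library left out. H3K4me1 gave 732 calls, 2 of them members. Keeping peaks whose -log10 p was 3 or more, or with equal numbers of peaks, there were 0 calls and 0 members. Without quantile normalization there were 1211 and 1, without the filter 20 and 0, over gene ends 219 and 1, and with 1 library left out 0 to 507 and 0 to 1. H3K27ac gave 0 calls, 16 without the filter, and 0 to 925 with 1 library left out, with 0 members. EGR1 gave 0 calls, 53 without the filter and 432 over the gene body window, with 0 members. H3K27me3 gave 0 calls, and 1167 with 1 member over genes covered in all 4 libraries. The cause was not tested for any of these changes.

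The replicate numbers are not said to pair the libraries, and the correlation of same-numbered deviations was -0.02 to 0.09 over the antibodies. With the number as a replicate block, H3K4me3 gave 1247 calls with 5 members, H3K4me1 0 with 0 members and H3K27ac 1329 with 4 members, and the other antibodies were at 0.

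The sign of the member differences was kept in 89 of 96 alternative values for H3K4me3, 47 of 62 for EGR1, 84 of 90 for H3K4me1, 92 of 97 for H3K27ac and 83 of 83 for H3K27me3. These counts include the replicate block, which returns the same difference as the main fit and could not change a sign. Without quantile normalization the median difference over all genes was 0.28 points for H3K4me3, 1.85 for H3K4me1, -0.09 for H3K27ac and -2.06 for H3K27me3, with member medians of -14.8, -9.43, -4.66 and 16.1 points. The H3K4me3 member median of -15.0 points was -5.55 over the 6 members covered in all 4 libraries, -6.20 with the stricter peak threshold, -9.78 over the gene body window and -9.65 without excitatory replicate 1. The H3K4me1 median of -9.61 was -2.98 over gene ends, and the H3K27me3 median of 18.3 was 9.43 over the 3 members covered in all 4 libraries. The EGR1 median of -0.35 ranged over the alternatives as far as -3.15 (equal numbers of peaks) and 2.64 (no quantile normalization).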
